A study of Mus musculus with 2 samples.

Results

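The miRNA genes that lie inside the 4 Hox gene clusters, Mir10a, Mir10b, Mir196a-1, Mir196a-2, Mir196b and Mir615, were described in adrenal glands of female mice. These 6 genes were chosen by name and position among the 2202 miRNA genes counted. The rule did not use their values, but earlier results of these data were known. All 6 had 10 or more reads in each library, as had 337 genes in all. The samples were 2 libraries of small RNA below 30 nucleotides from the adrenal gland of female mice of strain B6CASTF1/J, an F1 hybrid carrying a CAST chromosome set, at an age of 25 days. They form 1 group with no contrast. They are biological replicates 1 and 2, called library 1 and library 2 here. Both carry the same donor identifier although the glands are numbered as separate animals, so a difference between libraries can hold animal, dissection and library preparation, which cannot be told apart.

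Hox genes encode transcription factors that give cells their place along the head-to-tail axis, and within a cluster the low-numbered genes are used toward the head and the high-numbered genes toward the tail. Their clusters also hold miRNA genes, which make short RNAs that pair with mRNAs through the seed, the bases 2 to 8 of the mature miRNA, and repress them. The miR-10 genes lie next to Hox4, the miR-196 genes on the high-numbered side of Hox9, and Mir615 within Hoxc5. The adrenal gland has a steroid-making cortex and a catecholamine-releasing medulla.

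One mature arm of each gene is shown, because its seed decides which mRNAs it can bind, and these arms fall into 3 seed groups. They are from RefSeq (GRCm38.p6, the build of mm10), run 5′ to 3′, and have the seed in capitals.
miR-10a-5p: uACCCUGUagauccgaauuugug
miR-10b-5p: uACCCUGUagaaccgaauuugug
miR-196a-5p: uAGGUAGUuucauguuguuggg
miR-196b-5p: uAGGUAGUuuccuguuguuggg
miR-615-3p: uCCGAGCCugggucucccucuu
Between these 5p arms, each family differed at 1 base, counted from 1 at the 5′ end: U12A separates miR-10a-5p from miR-10b-5p, and A12C separates miR-196a-5p from miR-196b-5p. Both changes lie outside the seed, so the 5p arms of a family share theirs. The opposite arms miR-10a-3p and miR-10b-3p differ at 3 bases, of which A3G lies in the seed. Among 1679 mature names in the table, only miR-10b-5p shares the seed of miR-10a-5p, only miR-196b-5p shares that of miR-196a-5p, and none shares that of miR-615-3p. The letters of the miR-196 seed also stand in let-7g-5p, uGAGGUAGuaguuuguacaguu, but begin at base 3 there, 1 base past the let-7 seed start.

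Mir196a-1 and Mir196a-2 make the same miR-196a-5p. Their hairpins are shown with it in capitals, since only the bases outside the capitals can place a read.
Mir196a-1: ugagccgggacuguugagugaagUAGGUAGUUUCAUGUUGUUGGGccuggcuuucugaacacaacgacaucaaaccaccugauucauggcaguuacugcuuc
Mir196a-2: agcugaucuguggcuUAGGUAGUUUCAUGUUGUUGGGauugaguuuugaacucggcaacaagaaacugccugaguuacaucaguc
The longest stretch shared by both hairpins was the 22 bases of the mature sequence itself. Their other arms differ, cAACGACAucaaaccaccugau for miR-196a-1-3p and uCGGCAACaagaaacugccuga for miR-196a-2-3p. The gene counts leave out reads with more than 1 mapped place, so a read of exactly miR-196a-5p would be missing from both genes, and the counts of Mir196a-1 and Mir196a-2 are uncertain and can be too low. No stretch of 20 bases was shared with another of the 2202 miRNA genes by Mir10a, Mir10b, Mir196b or Mir615. Mir10a and Mir10b shared at most 15 bases in a run. The tables count reads per gene, so the arm a read came from is not known.

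The 2 libraries held 2244073 and 3912280 reads on the strand of miRNA genes, and each level below is the share of these reads a gene holds, scaled to counts per 1000000 reads (CPM). Intervals of levels are exact 95% Poisson intervals, which cover counting error only, and without molecular identifiers PCR copies of a molecule are counted apart. Reads mapped to several places made up 28.4% of all reads in library 1 and 27.5% in library 2, and the counts leave them out. Levels, ranks and shares of genes without copies can therefore be too high. A miRNA marker that defines the adrenal gland was not listed. The endocrine and neuroendocrine miRNAs Mir375, Mir7-1, Mir7-2 and Mir7b summed to 41802 CPM in library 1 and 42544 CPM in library 2. Most of each sum was Mir375, with 84318 reads in library 1 and 143037 in library 2, and the Mir7 genes were less even.

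By counted reads, the miR-10 genes were among the most abundant miRNA genes of the gland. Mir10a of the Hoxb cluster, whose family is shared by insects and vertebrates, had 105544 reads in library 1 and 259996 in library 2. These were 47032 CPM (95% interval 46749 to 47317) in library 1 and 66456 CPM (66201 to 66712) in library 2, at ranks 6 and 3 by counted reads. Mir10b of the Hoxd cluster, known in human breast cancer cells for repressing HOXD10, had 37420 reads in library 1 and 89600 in library 2. Its levels were 16675 CPM in library 1 (95% interval 16507 to 16845) and 22902 CPM in library 2 (22753 to 23053), at ranks 17 and 13. Both genes were thus higher in library 2, and even the lower Mir10a level was above the higher Mir10b level.

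Mir615, whose host Hoxc5 is a Hox gene of the trunk, came next with 3884 reads in library 1 and 3978 in library 2. Its 1731 CPM in library 1 (95% interval 1677 to 1786) and 1017 CPM in library 2 (985 to 1049) lay above 82.8% and 76.9% of the detected genes. Of the miR-196 genes, 2 were a little above the median of the detected genes, 156 CPM, and Mir196a-1 was below it. Mir196a-2 of the Hoxc cluster had 718 reads, 320 CPM, in library 1 and 860 reads, 220 CPM, in library 2. Mir196b of the Hoxa cluster had 595 reads, 265 CPM, in library 1 and 785 reads, 201 CPM, in library 2. Mir196a-1 of the Hoxb cluster was lowest with 82 reads, 36.5 CPM (29.1 to 45.4), in library 1 and 81 reads, 20.7 CPM (16.4 to 25.7), in library 2. All 4 genes had the higher CPM in library 1, the opposite of the miR-10 genes.

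**Figure D1:**
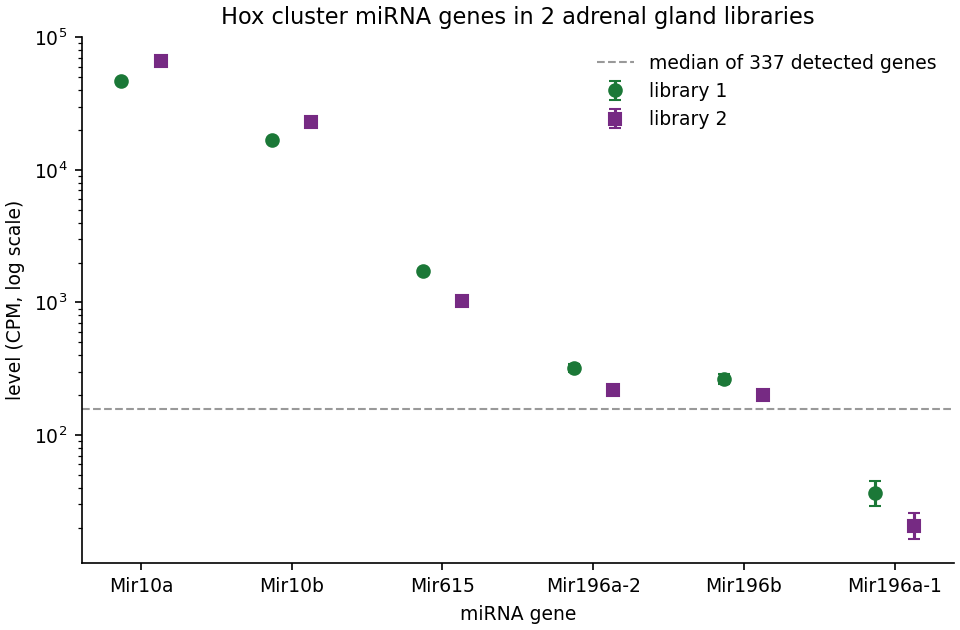
Level of each miRNA gene in CPM on a log axis, with circles for library 1, squares for library 2 and bars for exact 95% Poisson intervals; the dashed line is the median of 337 detected genes, 156 CPM. The miR-10 genes lie 2 orders of magnitude above the line, Mir615 and 2 miR-196 genes above it and Mir196a-1 below it.

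Over both libraries, Mir10a averaged 56744 ± 13735 CPM, Mir10b 19789 ± 4403 CPM, Mir615 1374 ± 505 CPM, Mir196a-2 270 ± 70.8 CPM, Mir196b 233 ± 45.6 CPM and Mir196a-1 28.6 ± 11.2 CPM (SD, n = 2). The order of the 6 genes was the same in each library. Neighbours in this order were compared by their reads within a library. Their mature sequences are 22 or 23 bases long, but whether different sequences are recovered equally was not tested. These are therefore comparisons of counted reads. In library 1, Mir196a-2 had 1.21 times the reads of Mir196b (95% interval 1.08 to 1.35, two-sided exact binomial test, p = 0.000838 adjusted over 10 comparisons). In library 2 it had 1.10 times the reads (95% interval 0.993 to 1.21, exact binomial test, adjusted p = 0.0680), and the ranges of both genes over the libraries overlapped. Their order is therefore not settled, also because reads of miR-196a-5p can be missing from Mir196a-2. The other 4 pairs of neighbours differed by more than the spread between libraries, the closest being Mir10a with 2.82 times the reads of Mir10b in library 1 and 2.90 times in library 2. Among these 4, Mir615 over Mir196a-2 and Mir196b over Mir196a-1 rest on Mir196a counts that can be too low. The last place of Mir196a-1 is therefore that of its counted reads.

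By cluster, the 6 genes were unevenly filled. Of their 148243 reads in library 1 and 355300 in library 2, the Hoxb cluster gave 71.3% in library 1 (95% Wilson interval 71.0 to 71.5%) and 73.2% in library 2 (73.1 to 73.3%). Hoxd, with only Mir10b, gave 25.2% in each library. Hoxc, with Mir615 and Mir196a-2, gave 3.10% in library 1 (3.02 to 3.19%) and 1.36% in library 2 (1.32 to 1.40%), and Hoxa, with Mir196b, gave 0.401% in library 1 and 0.221% in library 2. By position, the genes beside Hox4 held 96.4% in library 1 and 98.4% in library 2, while the 3 miR-196 genes together held 0.941% in library 1 and 0.486% in library 2. The shares of the miR-196 genes can be too low, since reads of miR-196a-5p can be missing. All 6 genes made up 6.61% of the counted miRNA reads in library 1 and 9.08% in library 2. This total leaves out reads mapped to several places, so the share can be too high.

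In the mm10 build, Mir10a (ENSMUSG00000065519.1) lies at chr11:96317165-96317274 on the plus strand, 1496 bp from the coding part of Hoxb4 and 12031 bp from that of Hoxb5, in no other annotated gene. Mir10b (ENSMUSG00000065500.3) lies at chr2:74726070-74726137 on the plus strand, 1142 bp from the coding part of Hoxd4, in introns of Hoxd4 and Hoxd3 transcripts. Both sit on the side of Hox4 that faces the high-numbered genes. Mir615 (ENSMUSG00000076010.1) lies at chr15:103014910-103015001 on the plus strand in an intron of Hoxc5.

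The miR-196 genes stand farther along. Mir196b (ENSMUSG00000065443.1) lies at chr6:52230081-52230165 on the minus strand, 3977 bp from the coding part of Hoxa9 and 2344 bp from that of Hoxa10, and overlaps an exon of 2 Hoxa9 transcripts and an intron of another. Mir196a-2 (ENSMUSG00000065488.2) lies at chr15:102973350-102973434 on the plus strand, 2278 bp from the coding part of Hoxc10 and 8219 bp from that of Hoxc9, in an intron of a long Hoxc5 transcript. Mir196a-1 (ENSMUSG00000065546.1) lies at chr11:96265164-96265265 on the plus strand, 6277 bp from the coding part of Hoxb9 and 68938 bp from that of Hoxb13, with no gene around it.

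Measured from the low-numbered end, Mir615 lay 18.3% along its cluster, Mir10a 28.9%, Mir10b 39.8%, Mir196a-2 54.5%, Mir196a-1 59.0% and Mir196b 70.5%. The 3 genes in the low-numbered part were the 3 most abundant, but among them Mir615, nearest the end, was the lowest. In both clusters that hold a pair, the gene on the low-numbered side had more reads. In Hoxb, Mir10a had 1287 times the reads of Mir196a-1 in library 1 and 3210 times in library 2. In Hoxc, Mir615 had 5.41 times the reads of Mir196a-2 in library 1 and 4.63 times in library 2. Both ratios rest on a Mir196a gene and can be too high for want of reads mapped to several places. One further miRNA gene is annotated inside the clusters, Gm44463 between Hoxd8 and Hoxd9, on the strand opposite to the Hoxd genes, and it had 0 reads in both libraries, which allows up to 1.34 CPM in library 1 and 0.767 CPM in library 2.

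**Figure D2:**
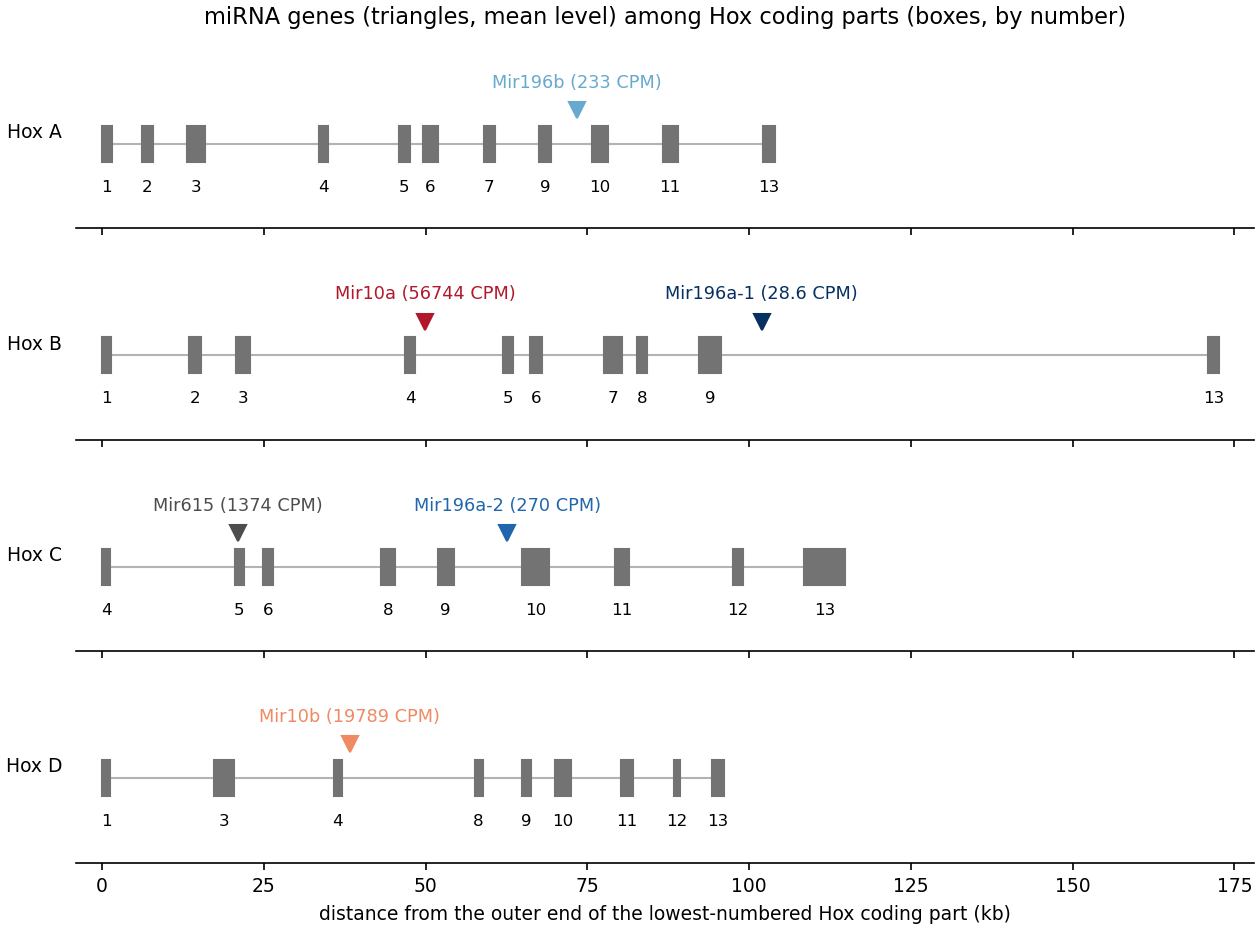
Place of the miRNA genes (triangles, with their mean level over both libraries) among the coding parts of the Hox genes (boxes, numbered) in each cluster, as distance in kb from the outer end of the lowest-numbered gene. Mir10a and Mir10b stand beside Hox4 with 56744 and 19789 CPM, and the 3 miR-196 genes past Hox9 with 28.6 to 270 CPM.

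The reads of the 2 libraries were compared gene by gene with a two-sided exact binomial test on TMM-scaled library sizes, which compares these libraries and no conditions. An adjusted p under 0.05 was found for 240 of 411 genes (58.4%), with 29.0% of the tested genes higher and 29.4% lower in library 1. All 6 Hox cluster genes passed. Mir10a had a log2 ratio of library 1 over library 2 of -0.58 (95% interval -0.60 to -0.57) and Mir10b one of -0.54 (-0.56 to -0.53), each with an adjusted p in the exact binomial test at 1e-300, the smallest value written. With TMM-scaled library sizes, Mir10b was thus 1.46-fold lower in library 1, and Mir10a a little more so.

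With the same TMM-scaled library sizes, Mir615 was 1.60-fold higher in library 1 (log2 ratio 0.68, 95% interval 0.62 to 0.75). Its adjusted p in the exact binomial test was 2.45e-95. Mir196a-1 was 1.66-fold higher (log2 ratio 0.73, 0.29 to 1.18, adjusted p in the exact binomial test 0.00252). Mir196a-2 was 1.37-fold higher (log2 ratio 0.46, 0.31 to 0.60) and Mir196b 1.25-fold higher (log2 ratio 0.32, 0.16 to 0.47), with adjusted p in the exact binomial test of 1.92e-09 and 0.000143. The call for Mir196b was lost without a filter on low counts, where the scaling moved the ratios of all genes by -0.17. With a fold of 1.5 required as well, 2 of the 6 were called, Mir615 and Mir196a-1, against 31.4% of all tested genes, and Mir10a fell just short of that limit. The sizes of these differences were common ones: the median absolute log2 ratio was 0.56 over the 6 genes and 0.50 over the tested genes.

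**Figure D3:**
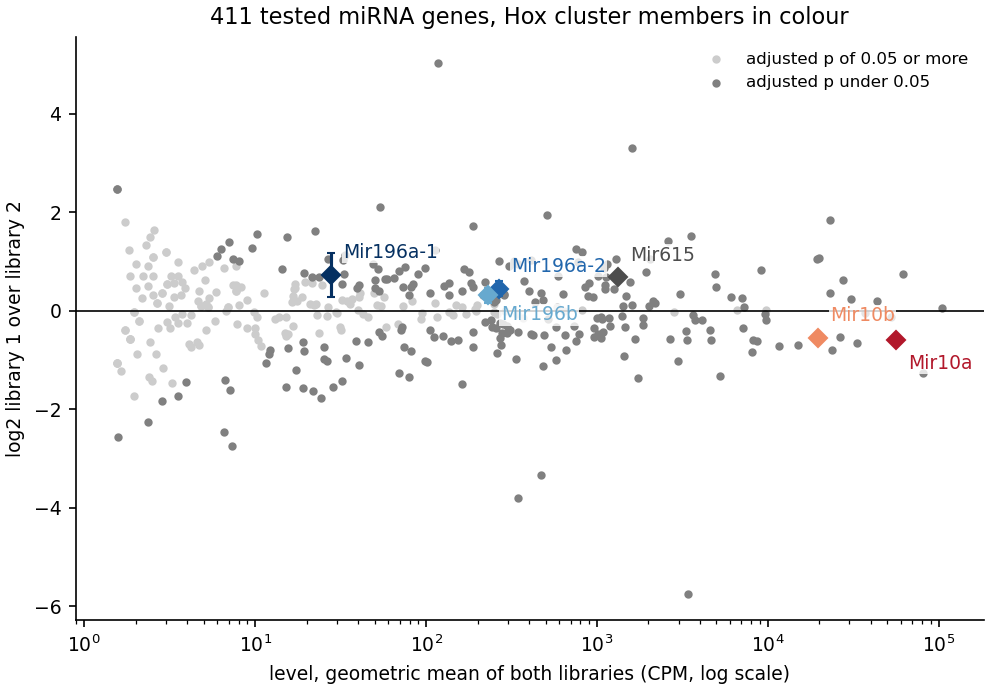
Log2 ratio of library 1 over library 2 against level in CPM (log axis) for 411 tested genes, in light grey where the adjusted p was 0.05 or more and in dark grey where it was under 0.05; diamonds are the 6 Hox cluster genes with 95% counting intervals. Mir10a and Mir10b lie below 0, the other 4 above 0, and all within the cloud of the other genes.

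Markers of other cells differed between the libraries as well, and their part in these differences was not tested. The red cell miRNAs Mir451a and Mir144 summed to 633 CPM in library 1 and 25693 CPM in library 2, and the endothelial Mir126a had 53763 CPM in library 1 and 121007 CPM in library 2. Both lists were in the direction of the miR-10 genes. So were 3 of the endocrine and neuroendocrine genes, Mir7-1, Mir7-2 and Mir7b, with log2 ratios of library 1 over library 2 of -0.44, -1.26 and -0.59. Mir375, which held most of that list's sum, had one of -0.05. The 5 smooth muscle and fibroblast genes were mixed: they summed to 28927 CPM in library 1 and 41797 CPM in library 2, yet 3 of them had the higher CPM in library 1. Most of the sum was Mir143, with 61247 reads in library 1 and 158654 in library 2 (log2 ratio -0.66), while Mir214 had a log2 ratio of 0.71. The list of kidney and epithelium, an adjacent organ, was mixed as well. It summed to 198 CPM in library 1 and 155 CPM in library 2 over 9 genes, 6 of them with the higher CPM in library 1. Among these, Mir429 and Mir204 had TMM-scaled log2 ratios of -0.02 and -0.03. Mir194-2 and Mir200b passed the exact binomial test (adjusted p = 0.0113 and 7.55e-05), while Mir192 and Mir200c did not (adjusted p = 0.215 and 0.833). In the direction of Mir615 and the miR-196 genes went the liver miRNA Mir122, with 5185 CPM in library 1 and 491 CPM in library 2. Striated muscle had 4.01 CPM in library 1 and 1.28 CPM in library 2, all from Mir206, with 5 of 6 genes at 0, of which the Mir1a and Mir133a genes have copies. Fewer cells of a type and less RNA per cell cannot be told apart in such tissue libraries.

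Ratios between the genes within a library need no scaling, and 5 of them were compared between the libraries with two-sided Fisher's exact tests of the reads, adjusted over the 5. Mir10a over Mir10b was 2.82 in library 1 and 2.90 in library 2. The log2 difference of -0.04 (95% interval -0.06 to -0.02) passed the test at this depth (Fisher's exact test, adjusted p = 0.000124) and is 1.03-fold. Mir196b over both Mir196a genes was -0.43 in library 1 and -0.26 in library 2, a difference of -0.17 on the log2 scale (-0.37 to 0.04, Fisher's exact test, adjusted p = 0.149). Mir196a-1 over Mir196a-2 was -3.12 in library 1 and -3.40 in library 2, a difference of 0.28 (-0.19 to 0.74, Fisher's exact test, adjusted p = 0.249). These last 2 tests did not pass, and their intervals still allow changes of up to 1.29-fold and 1.67-fold.

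Ratios of the miR-10 genes to the miR-196 genes and to Mir615 differed much more. Mir615 over Mir196a-2, also across positions, was 5.41 in library 1 and 4.63 in library 2, and this change was not tested. The miR-10 genes had 102 times the reads of the miR-196 genes in library 1 and 202 times in library 2, a log2 difference of -0.98 (95% interval -1.09 to -0.88, Fisher's exact test, adjusted p = 1.23e-75). The ratio in each library can be too high, since reads of miR-196a-5p can be missing from the Mir196a genes. Mir615 over the miR-10 genes was -5.20 in library 1 and -6.46 in library 2 on the log2 scale, a 2.39-fold difference (Fisher's exact test, adjusted p at 1e-300, the smallest value written). The 95% intervals of these 2 log2 differences, -1.09 to -0.88 and 1.19 to 1.32, do not overlap those of the ratios within a family. Whether the differences themselves differ was not tested. These tests and intervals cover counting error only. Among all tested genes, the log2 ratio of library 1 over library 2 had quartiles of -0.47 and 0.53.

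**Figure D4:**
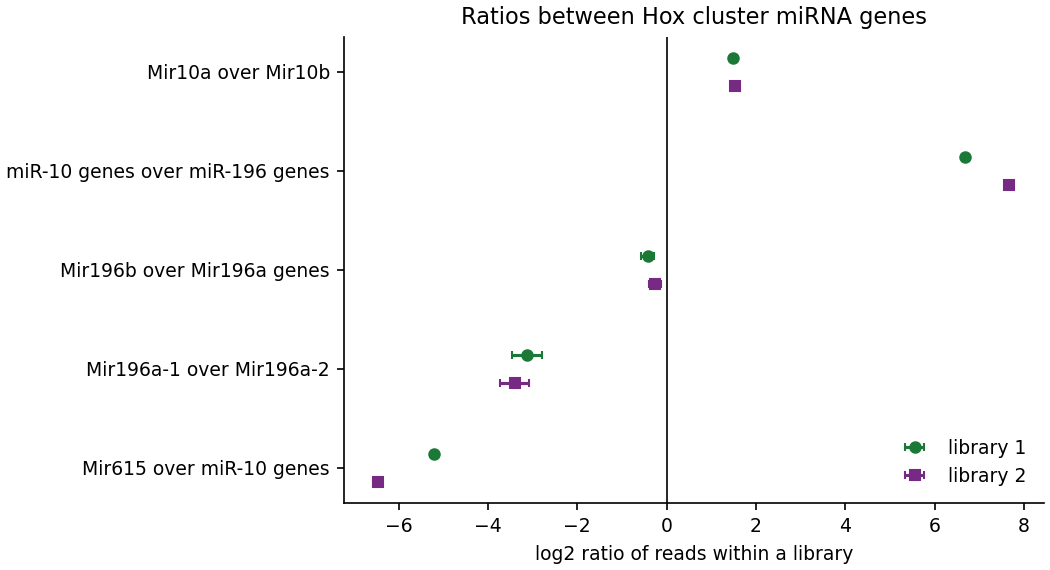
Log2 ratio of reads between Hox cluster miRNA genes within library 1 (circles) and library 2 (squares), with 95% counting intervals as bars. Mir10a over Mir10b lies close to the same place in both libraries, while the miR-10 genes over the miR-196 genes stand at 6.68 in library 1 and 7.66 in library 2.

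Outside the Hox clusters, the miR-10 family continues with Mir99a, Mir99b and Mir100. The longest stretch that miR-99a-5p or miR-100-5p shares with miR-10a-5p begins at base 7 of miR-10a-5p, inside its seed.
miR-99a-5p: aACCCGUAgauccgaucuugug
miR-100-5p: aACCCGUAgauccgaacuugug
miR-99b-5p: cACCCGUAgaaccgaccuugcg
MiR-100-5p shares the 11 bases guagauccgaa with miR-10a-5p but begins them 1 base earlier, and its seed differs. Mir99a had 12148 CPM in library 1 and 18536 CPM in library 2, Mir99b 3441 CPM in library 1 and 8089 CPM in library 2, and Mir100 2259 CPM in library 1 and 3156 CPM in library 2. With log2 ratios of library 1 over library 2 of -0.70, -1.32 and -0.57, these 3 genes were lower in library 1, as the miR-10 genes were. Mir99a was also among the 2 genes nearest to Mir10b in log2 CPM over both libraries, after Mir322. Nearest to Mir10a were Mirlet7i and Mir378a, to Mir615 Mir146 and Mir298, to Mir196a-2 Mir421 and Mir152, to Mir196b Mir673 and Mir188, and to Mir196a-1 the entries n-TSaga9 and Mir293. The distances were 0.09 to 0.75 log2 units among 336 genes. With 2 libraries such likeness is a likeness of level.

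Hox mRNAs are known targets of these miRNAs, so the matches of each seed were counted in the annotated 3′ UTRs of 38 Hox genes and of 20135 protein-coding genes (GENCODE M21, sense strand, 50 or more bases). The match to the miR-10 seed, ACAGGGT, stood in 4 of 38 Hox UTRs (10.5%), among them those of Hoxb3 and Hoxd1, and in 11.5% of all UTRs. The match to the miR-196 seed, ACTACCT, stood in 8 of 38 (21.1%), those of Hoxa4, Hoxa5, Hoxa7, Hoxa9, Hoxb1, Hoxb6, Hoxb7 and Hoxc8, and in 5.71% of all UTRs. Hox UTRs had a median of 963 bases and all UTRs one of 847. Only 1 of the 12 miR-196 matches in Hox UTRs was followed by C, which makes it a match to the let-7 seed as well, CTACCTC. The match to the miR-615-3p seed, GGCTCGG, stood in Hoxb4 alone among Hox genes and in 2.13% of all UTRs.

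Hoxb8 holds none of these seed matches, yet it is the mouse mRNA known to be cut under the guidance of miR-196. Its site is shown because it pairs along the whole miRNA, with the bases opposite the seed in capitals.
Hoxb8 site, chromosome 11: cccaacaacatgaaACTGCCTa
All 22 bases of miR-196a-5p paired with it, 21 as Watson-Crick pairs and 1 as a G:U pair, whereas the best site per gene had a median of 17 pairs over 20135 genes. One other gene, Rps6ka2, held a site with 22 pairs and was named after its value was seen. With miR-196b-5p the Hoxb8 site formed 21 pairs, a number no other gene exceeded and 14 other genes reached. Of the 12 miR-196 seed matches in Hox UTRs, the one in Hoxa7 at base 500 paired best, with 14 Watson-Crick and 3 G:U pairs. For miR-10a-5p and miR-10b-5p the best Hox sites had 18 of 23 bases paired, a number exceeded in 299 and 222 other genes. A match describes the letters and shows no binding, and Hox mRNA levels were not measured in these libraries.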

How the data were processed

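Small RNA of 2 adrenal gland libraries was analysed. Each deposited table holds the raw counts of reads per miRNA gene for 1 library, with reads mapped to mm10, per the labels, and the GENCODE M21 annotation, per the text deposited with each table. The counting tool is not given in the sources used here. Of the 3 count columns, the second, with the larger total of the 2 stranded ones, was taken as the strand of the gene, an inference from the values. All 2202 identifiers were found in GENCODE M21. Library sizes leave out the rows of unassigned reads: unmapped reads were 33.8% of library 1 and 27.8% of library 2, reads outside miRNA genes 9.57% and 9.53%, and ambiguous reads of the unstranded column 3.84% and 7.49%.

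With 1 group there was no coefficient for edgeR's quasi-likelihood test. Genes with 10 or more reads summed were tested with exact binomial tests, with edgeR 4.0.16 TMM library sizes, Benjamini-Hochberg adjustment over 411 genes and 0.5 read added for log2 ratios. The test was run on simulated data. Python 3.11.15, scipy 1.17.1, pandas 2.3.3, matplotlib 3.10.9, R 4.3.3 and DESeq2 1.42.0 (size factors only) were used. p-values under 1e-300 were written as that value.

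Alternatives were the unstranded column, other scalings and filters, a fold limit and each library alone. Members and lists were chosen with earlier results of these data known. Named genes are the 6 members, other miRNA genes in the clusters, Mir99a, Mir99b, Mir100 and the 2 genes nearest in level to each member. Let-7g, the marker genes and the Hox genes with sites were named besides. The 3′ UTR is that of the transcript with the longest coding part. Copies of the mature sequences elsewhere in the genome were not searched.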

Additional observations from a re-analysis of the deposited data

How the results depend on the processing

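No paired analysis was possible because the labels hold a single group. Of 126 alternative values, 114 kept their direction and side of the threshold or moved by less than the SD of the libraries. For the 16 values of each library alone this was fixed in advance, since neither of 2 libraries can lie an SD from their mean. In the unstranded column the reads of the 6 genes were the same, save for Mir196a-1 in library 2 with 82 against 81. Shares and ratios among the 6 genes could therefore hardly move there. With all reads as library size, the 6 genes made up 2.53% of the reads. Mir10a then had 18325, Mir10b 6381, Mir615 423, Mir196a-2 83.8, Mir196b 72.7 and Mir196a-1 8.80 CPM. This total also holds unmapped reads, reads mapped to several places and reads outside miRNA genes. In the unstranded column, whose total is smaller, Mir10b had 24196 CPM and Mir196b 281 CPM. Without a filter on low counts, the log2 ratio of library 1 over library 2 for Mir196b was 0.15 (exact binomial test, adjusted p = 0.168). Over the other alternatives its adjusted p in the exact binomial test was 1.08e-06 to 0.00287. Without the filter, the scaling moved the ratios of all genes by -0.17, and 751 genes were tested in place of 411. A fold limit of 1.5 left 129 of all genes and 2 of the 6. Scaling without Mir126a, Mir451a and Mir144, chosen after the data were seen, moved no level by more than the SD. In single libraries the share was 6.61 to 9.08%. At 82 reads in library 1 and 81 in library 2, Mir196a-1 is the gene whose ratios depth limits most.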
